A study of Saccharomyces cerevisiae with 8 samples.

Results

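The features described here are the transfer RNA (tRNA) genes of budding yeast, taken from a table of normalized read densities by their names, which start with t, a 1-letter amino acid code and an anticodon in brackets, as in tH(GUG)G2. Of the 11966 features in the table, 287 met this rule. Nuclear genes numbered 268 and were sorted into 42 anticodon families, with tX(XXX)D, whose name gives neither amino acid nor anticodon, counted as a family of its own. Mitochondrial genes, whose names end in Q, numbered 19 and were kept apart.

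Saccharomyces cerevisiae BY4741 cells (MATa his3Δ1 leu2Δ0 met15Δ0 ura3Δ0) were grown to mid-log phase in YPD medium at 30 °C. The 4 groups held 2 biological replicates each: upf1 cells given anisomycin (ANS), upf1 cells given DMSO, wild-type (WT) cells given ANS and WT cells given DMSO. The upf1 cells carried upf1::kanMX4 on the same background, so that the auxotrophic alleles were common to all groups. ANS, an inhibitor of peptide bond formation, was given at 100 µg/ml for 30 min, and DMSO was its solvent. Upf1 is the helicase at the core of nonsense-mediated mRNA decay. Ribosomal RNA was removed from total RNA before strand-specific sequencing, and no spike-in values enter here. A density is the reads of a gene per nt, scaled by 1 factor per library.

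Yeast nuclear tRNA genes are short, are transcribed by RNA polymerase III from promoter elements inside the gene (boxes A and B), and lie scattered over all chromosomes in many near-identical copies. The primary transcript is trimmed at its 5′ end by RNase P and at its 3′ end by RNase Z, receives CCA, is modified at many bases, and, in some families, loses an intron that lies just after the anticodon. Mature tRNAs are stable, structured and heavily modified, and deliver amino acids to the ribosome. Genes of the mitochondrial genome are transcribed by another polymerase.

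The gene sequences show which members hold an intron and which have copies. Those of the isoleucine tI(UAU) pair are shown because that family had the largest decrease in summed density after ANS in WT cells, and tH(GUG)G2 because it held the most reads. Those of tS(CGA)C, tQ(CUG)M and tR(CCG)L belong to anticodons with 1 gene in the table. All are RefSeq sequences of build R64, 5′ to 3′ on the sense strand. Capitals mark the intron in the first 3, and the anticodon in the rest. The gene tI(UAU)L lies at chrXII:605300-605432 on the minus strand, tI(UAU)D at chrIV:884361-884493 on the plus strand and tS(CGA)C at chrIII:227942-228042 on the plus strand. The gene tQ(CUG)M lies at chrXIII:808246-808317 on the minus strand and tR(CCG)L at chrXII:818609-818680 on the plus strand. The sequence of tH(GUG)G2 is annotated at 7 loci and it was not assigned to one of them.
tI(UAU)L: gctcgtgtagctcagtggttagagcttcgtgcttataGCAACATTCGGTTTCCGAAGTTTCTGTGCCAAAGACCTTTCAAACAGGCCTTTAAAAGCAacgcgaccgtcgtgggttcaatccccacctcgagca
tI(UAU)D: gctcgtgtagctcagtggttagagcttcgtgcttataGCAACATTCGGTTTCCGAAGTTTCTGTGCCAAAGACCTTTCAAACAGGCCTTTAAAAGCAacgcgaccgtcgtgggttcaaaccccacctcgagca
tS(CGA)C: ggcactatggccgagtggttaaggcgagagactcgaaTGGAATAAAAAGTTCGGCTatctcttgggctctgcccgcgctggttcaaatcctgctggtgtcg
tQ(CUG)M: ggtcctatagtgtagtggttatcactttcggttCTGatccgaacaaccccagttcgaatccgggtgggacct
tR(CCG)L: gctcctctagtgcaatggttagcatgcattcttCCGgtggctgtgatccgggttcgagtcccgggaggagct
tH(GUG)G2: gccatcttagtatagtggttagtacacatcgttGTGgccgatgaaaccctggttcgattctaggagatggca
The pair of tI(UAU) genes is 133 nt long with an intron of 60 nt, and the only difference between them is A119T, counted from the 5′ end of the gene with the base of tI(UAU)D first.

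Depth limits what can be said of single genes. The libraries held 6958588 to 12004302 reads recovered from the densities, of which nuclear tRNA genes made up 0.0305% to 0.0503%, or 2670 to 5351 reads. Over all 8 libraries a nuclear tRNA gene had 1 to 5796 reads with a median of 41.5, and 79 genes had 80 reads or more. A density covers the whole gene, introns included, so it does not tell precursors from mature tRNAs. Ranks and changes of density are therefore not read here as levels of mature tRNA. The upf1 DMSO replicate 1 stood apart, with a summed nuclear tRNA density of 23.9 against 36.6 in its replicate, so values without it are given for the main results of upf1 cells and where they end a call. NAM7, the UPF1 gene, had densities of 0.021 and 0.0244 in upf1 ANS and 0.0113 and 0.00975 in upf1 DMSO libraries, against 1.24 and 1.59 in WT ANS and 0.432 and 0.449 in WT DMSO libraries. Each library gave a relative measure, so a change in RNA per cell and a change in the number of cells cannot be told apart. The deposited factors equalled those computed from 76 snoRNAs to within a ratio of 0.997 to 1.0038, so deposited densities read as levels relative to snoRNAs. Protein-coding genes rose by a median of 1.43 (log2) in upf1 and 1.72 in WT cells after ANS on that scale, and changes relative to protein-coding genes are therefore given beside the deposited ones.

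Nuclear tRNA reads were spread very unevenly over genes. The histidine gene tH(GUG)G2 alone held 5796 of 29027 reads, or 20% (95% Wilson interval 19.5% to 20.4%, for counting error only). The 4 most read genes held 32.5% and the 20 most read genes 54.3%. Genes with an intron, 59 in 10 families, were 22.0% of the genes and held 36.2% of the reads. Their median density was 0.116, against 0.0494 for the 207 genes without one. Since copies with the same sequence cannot be told apart by reads inside the gene, and how reads with several matches were treated is not given in the sources used here, densities of single copies are uncertain. Sequences found at 1 locus (26 genes) had a median of 80.5 reads, those at 2 to 9 loci (94 genes) 53.5, and those at 10 or more loci (132 genes) 28.5.

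By amino acid, the summed density in WT DMSO libraries was highest for histidine, at 8.01 ± 0.12 (SD, n = 2 here and below), followed by isoleucine at 3.93 ± 0.15 and lysine at 3.08 ± 0.22. The arginine, serine and leucine genes summed to 2.36 ± 0.29, 2.11 ± 0.05 and 1.88 ± 0.16. Arginine and serine differed by less than the SD of the arginine libraries, and the libraries of leucine overlapped with those of proline, next in order at 1.83 ± 0.18. At the low end, alanine genes summed to 0.438 ± 0.084, the methionine genes to 0.407 in both libraries, and cysteine genes to 0.0781 ± 0.0021. Isoleucine held its place through tI(UAU), the minor isoleucine tRNA that reads AUA codons, with 2 genes and 2982 reads. The 12 genes of tI(AAU), the major isoleucine tRNA, had 297 reads together.

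**Figure D1:**
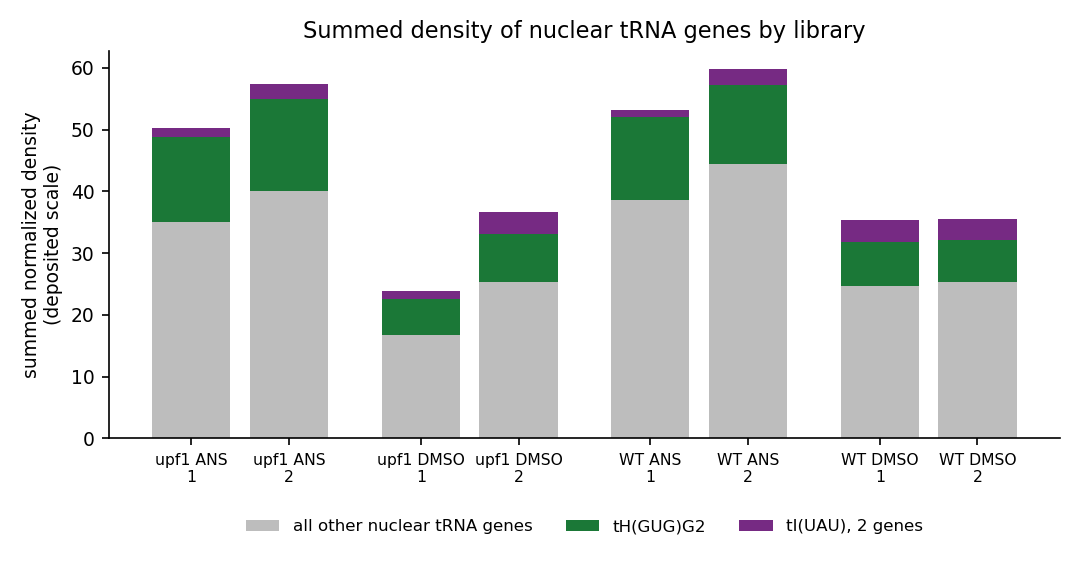
Summed normalized density of the nuclear tRNA genes in each of the 8 libraries (bars, linear axis from 0), split into tH(GUG)G2, the tI(UAU) pair and all other genes. All 4 ANS bars, at 50.3 to 59.8, stand above all 4 DMSO bars, at 23.9 to 36.6, and the tI(UAU) segment is smaller with ANS in WT cells, at 1.08 and 2.54 against 3.60 and 3.30 with DMSO.

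After ANS, the summed nuclear tRNA density was higher in both strains, by less than that of mRNAs. It was 50.3 and 57.4 in upf1 ANS libraries, against 23.9 and 36.6 in upf1 DMSO libraries. In WT cells it was 53.1 and 59.8 with ANS, against 35.5 and 35.5 with DMSO. The groups did not overlap in either strain. The log2 ratio of the group means was 0.83 in upf1 cells and 0.67 in WT cells, against 1.57 and 1.88 for the median density of protein-coding genes. With upf1 DMSO replicate 1 left out, the ratio in upf1 cells was 0.56. Relative to protein-coding genes the summed density was lower after ANS, by log2 ratios of -0.67 in upf1 and -1.04 in WT cells. With 2 libraries in a group, a permutation test of a single value cannot go below a two-sided p of 0.333, so sums and shares are given without a test.

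Gene by gene, 100 of 262 nuclear tRNA genes tested rose and 2 fell after ANS in upf1 cells on the deposited scale (limma, Benjamini-Hochberg adjusted p under 0.05 over all features). The background was 88.7% of 11579 features higher and 0.268% lower, and the share of tRNA genes that rose was 38.2%. In WT cells 83 rose and 8 fell, or 31.7% and 3.05%, against 90.2% and 0.345% of all features. The median fitted change of the tRNA genes was 0.81 in upf1 and 0.64 in WT cells, against 1.37 and 1.77 for all features tested. Both falls in upf1 and all 8 falls in WT cells were of genes with 28 reads or fewer over the 8 libraries. Among the 79 genes with 80 reads or more, 43 rose in upf1 and 36 in WT cells and none fell on the deposited scale, although with recovered reads and voom weights 2 of them, the tI(UAU) pair, fell in WT cells. In upf1 cells the median fitted change of the 262 genes without upf1 DMSO replicate 1 was 0.56, against 1.41 for all features.

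Set against protein-coding genes, most calls were in the other direction. In upf1 cells 5 tRNA genes rose and 37 fell, or 1.91% and 14.1%, against 17.4% and 18.4% of all features. In WT cells 3 rose and 82 fell (31.3% lower), against 35.7% higher and 19.4% lower of all features. Median fitted changes were -0.48 in upf1 and -0.92 in WT cells, against 0.02 and 0.28 for all features. Once upf1 DMSO replicate 1 was left out, the median in upf1 cells was -0.90, against -0.01 for all features. The median tRNA gene thus lay between the snoRNAs, which set the deposited scale, and the protein-coding genes.

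**Figure D2:**
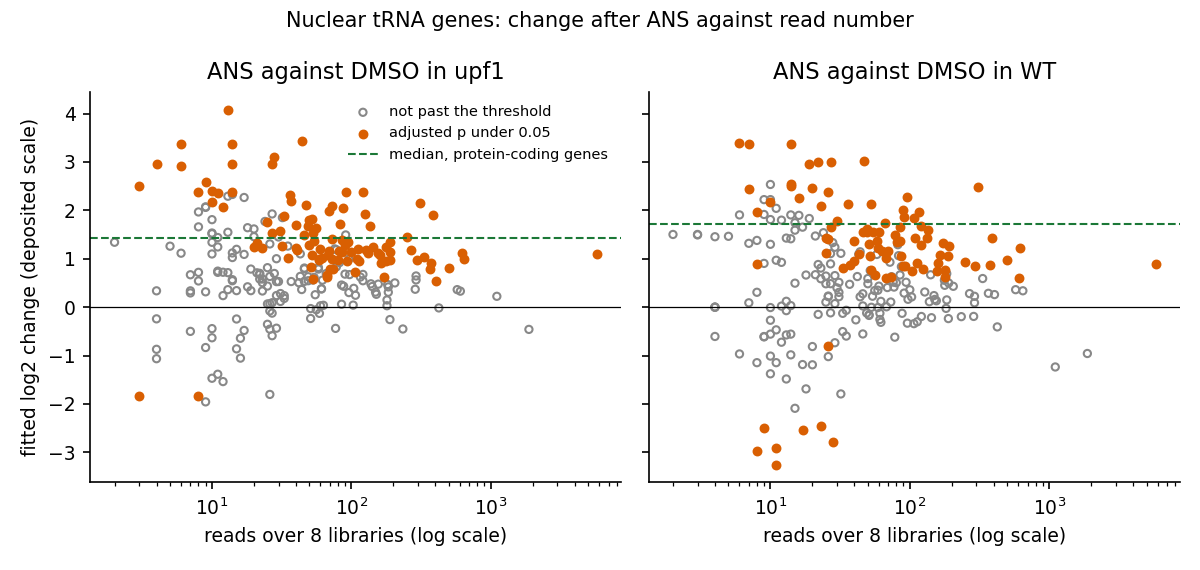
Fitted log2 change after ANS on the deposited scale (vertical) against reads over 8 libraries (horizontal, log scale) for the nuclear tRNA genes tested, in upf1 (left) and WT cells (right), with genes past the threshold filled. Falls past the threshold were all at 28 reads or fewer, and most genes lay under the dashed line, the median of protein-coding genes at 1.43 in upf1 and 1.72 in WT cells.

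Most anticodon families moved together. Of the 41 families with a known anticodon, 39 had a higher summed density after ANS in upf1 cells and 37 in WT cells. In 31 and 29 of them the ANS libraries lay above both DMSO libraries, where 94.9% and 93% of all features did so. Among the 17 families with 500 reads or more, the change in WT cells ran from -0.93 to 1.13 (log2), and 15 had ANS libraries above both DMSO libraries. Relative to protein-coding genes, 40 of 41 were below 0 in each strain (the exceptions had 12 reads in upf1 and 7 in WT cells).

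The glutamate family tE(UUC), with 14 genes and 1171 reads, had the highest change among well-read families. It summed to 2.63 and 2.75 in upf1 ANS libraries, against 0.666 and 1.59 in upf1 DMSO libraries. Its WT sums were 2.81 and 3.79 with ANS, against 1.34 and 1.69 with DMSO. The groups were apart in both strains, at log2 ratios of 1.25 and 1.13. Without upf1 DMSO replicate 1, the ratio in upf1 cells was 0.76. Much of this came from tE(UUC)G1, which had 0.919 and 0.792 in upf1 ANS, against 0.124 and 0.291 in upf1 DMSO libraries. Its WT ANS densities were 0.908 and 1.67, against 0.172 and 0.278 in WT DMSO libraries. It rose by 2.15 ± 0.40 (log2, SE) in upf1 and 2.47 ± 0.40 in WT cells (limma adjusted p = 0.000605 and 0.000181), although relative to protein-coding genes it did not pass the threshold in either (0.67 and 0.78). With upf1 DMSO replicate 1 left out, it rose by 1.54 ± 0.36 in upf1 cells (0.00331). Its sequence is at 13 loci.

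The phenylalanine family tF(GAA), of 10 genes with introns, had a log2 ratio of 0.68 in upf1 and 1.07 in WT cells, and the serine family tS(UGA), of 3 genes, 0.85 and 1.31. In upf1 cells they were 0.52 and 0.45 without upf1 DMSO replicate 1. Both changed sign relative to protein-coding genes, at -0.59 and -0.43 in WT cells. The arginine family tR(CCG) and the leucine family tL(UAA) had log2 ratios of -0.06 and -0.05 in WT cells and of 0.33 and 0.94 in upf1 cells, or 0.10 and 0.33 there without upf1 DMSO replicate 1. In WT cells their groups overlapped. The serine family tS(CGA), of 1 gene, had log2 ratios of -0.02 in WT and -0.68 in upf1 cells, with overlap in both. Without upf1 DMSO replicate 1 its ratio in upf1 cells was -1.31. The largest ratio, 2.87 in WT cells for the single threonine gene tT(CGU)K, rested on 7 reads in all.

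**Figure D3:**
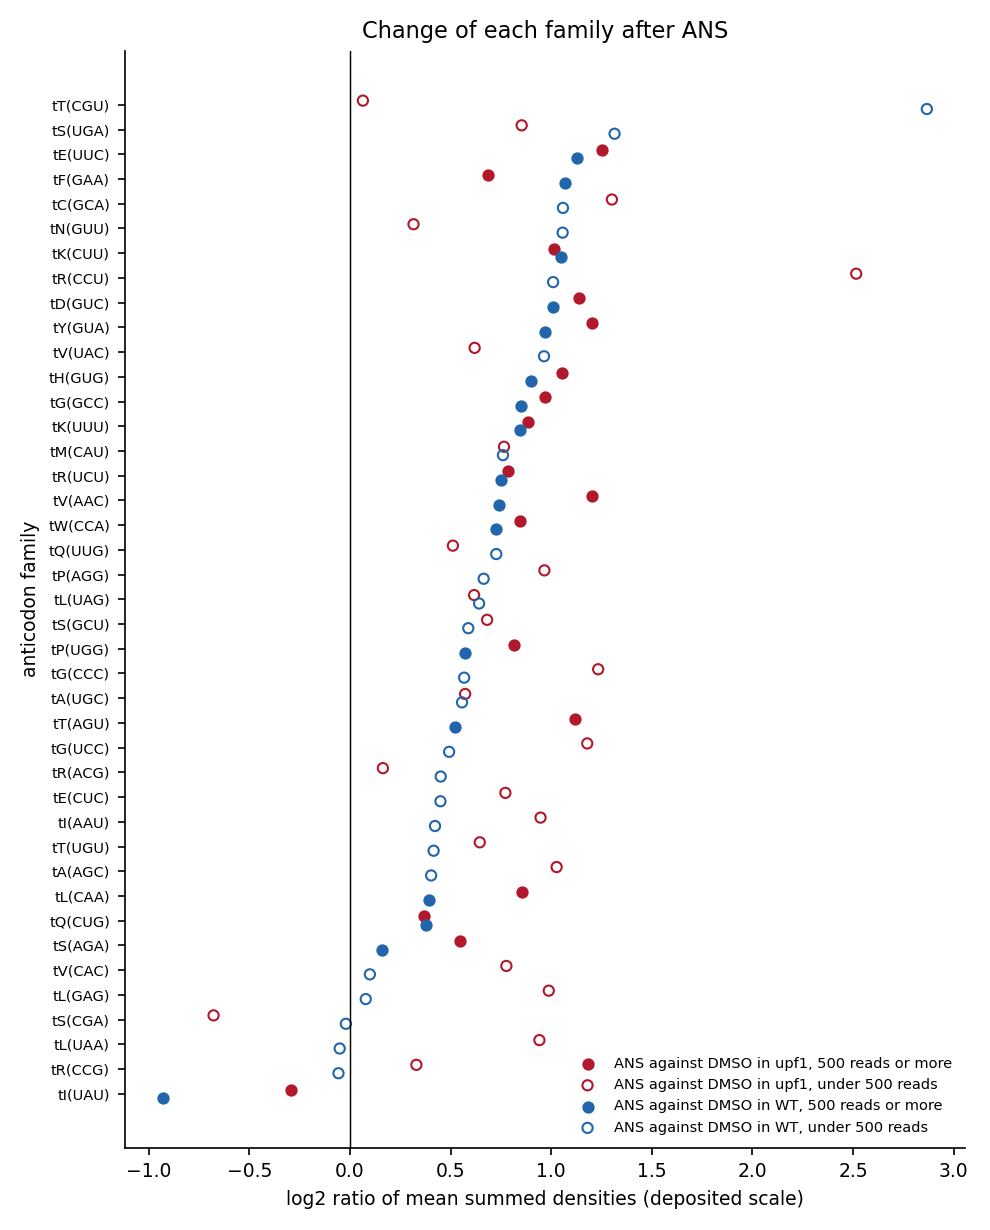
Log2 ratio of mean summed densities, ANS over DMSO, for 41 anticodon families in upf1 (red) and WT cells (blue), filled where a family had 500 reads or more. The tI(UAU) family is at the bottom, at -0.93 in WT and -0.29 in upf1 cells, while the other filled points lie above 0.

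The histidine gene tH(GUG)G2 had densities of 13.8 and 14.9 in upf1 ANS libraries, against 5.80 and 7.78 in upf1 DMSO libraries. Its WT densities were 13.3 and 12.7 with ANS, against 7.24 and 6.86 with DMSO. Every ANS library was above every DMSO library. It rose by 1.10 ± 0.14 in upf1 cells (limma adjusted p = 5.57e-05) and by 0.89 ± 0.14 in WT cells (0.000149). Against protein-coding genes it fell by 0.82 ± 0.20 in WT cells (0.0119), and its value in upf1 cells, -0.39 ± 0.20, missed the threshold (0.178). Leaving it out gave log2 ratios of 0.75 and 0.61 for the remaining summed density in upf1 and WT cells, so the higher sum did not rest on it. With 7 libraries, upf1 DMSO replicate 1 left out, the gene rose by 0.88 ± 0.15 in upf1 cells (0.000516).

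In WT cells both genes of the tI(UAU) pair had lower densities with ANS, and in upf1 cells the mean was lower for tI(UAU)L and higher for tI(UAU)D. The gene tI(UAU)L had densities of 0.856 and 1.33 in upf1 ANS libraries, against 0.968 and 2.23 in upf1 DMSO libraries. Its WT densities were 0.755 and 1.67 with ANS, against 2.19 and 2.17 with DMSO. The WT groups did not overlap and the upf1 groups did. The gene tI(UAU)D had 0.637 and 1.18 in upf1 ANS, against 0.432 and 1.27 in upf1 DMSO libraries. In WT cells it had 0.324 and 0.878 with ANS, against 1.41 and 1.13 with DMSO. Replicates differed widely, except in WT DMSO for tI(UAU)L, and both genes had their lower value in the same library of each group. The genes differ only at position 119, so reads that miss that base fit both. Their densities may therefore not be independent of each other.

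The fitted change in WT cells was -0.96 ± 0.42 for tI(UAU)L and -1.24 ± 0.54 for tI(UAU)D on the deposited scale, and both just missed the threshold (limma adjusted p = 0.0507 and 0.0501). With recovered reads and voom weights, an alternative added after the data were seen, both passed (limma adjusted p = 0.0027 and 0.00224). Without WT ANS replicate 1 the values were -0.39 and -0.52, and without WT ANS replicate 2 they were -1.53 and -1.95 and passed (0.0144 and 0.0168). Relative to protein-coding genes both fell in WT cells, by 2.66 ± 0.46 and 2.93 ± 0.60 (adjusted p = 0.00231 and 0.00499). In upf1 cells the changes on the deposited scale were -0.46 ± 0.42 for tI(UAU)L and 0.22 ± 0.54 for tI(UAU)D (0.311 and 0.698). Once upf1 DMSO replicate 1 was left out, the lower of its pair for both genes, they were -1.06 ± 0.40, which passed, and -0.55 ± 0.51 (0.0305 and 0.321). Relative to protein-coding genes tI(UAU)L fell in upf1 cells by 1.94 ± 0.46 (0.0145), and tI(UAU)D, at -1.26 ± 0.60, did not pass (0.147), but did at -2.09 ± 0.53 without upf1 DMSO replicate 1 (0.0341). The difference between strains did not pass for either gene (interaction 0.50 ± 0.59 and 1.46 ± 0.76, adjusted p = 0.766 and 0.324).

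**Figure D4:**
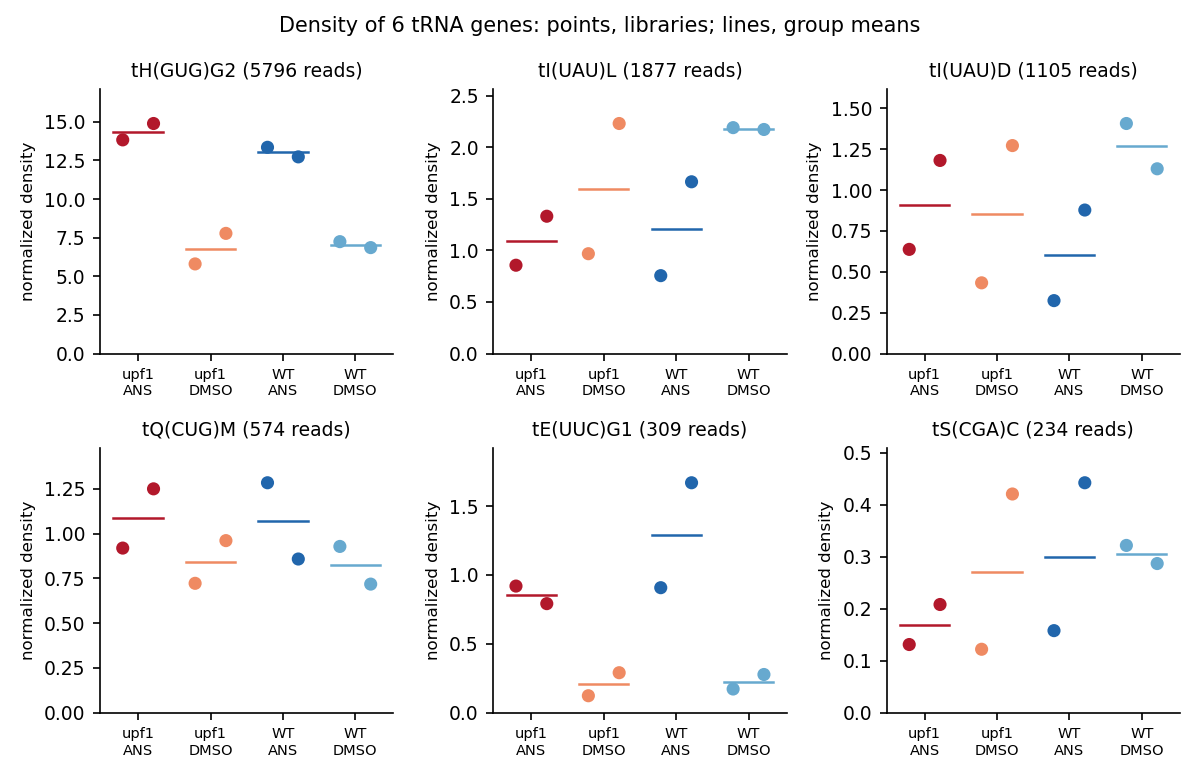
Normalized density of 6 tRNA genes in each library (points, linear axes from 0) with group means (lines), for upf1 ANS, upf1 DMSO, WT ANS and WT DMSO from left to right. The histidine gene tH(GUG)G2 and tE(UUC)G1 separate ANS from DMSO in both strains, and tI(UAU)L and tI(UAU)D are lower with ANS in WT cells.

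A share of the tRNA reads does not depend on how the libraries were scaled. The tI(UAU) pair held 4.89% and 7.12% of nuclear tRNA reads in upf1 ANS libraries, against 9.41% and 15.0% in upf1 DMSO libraries. Shares in WT cells were 3.37% and 6.95% with ANS, against 15.9% and 14.6% with DMSO. All 4 ANS shares were below all 4 DMSO shares, while replicates also differed beyond counting error within every group but WT DMSO. The log2 ratio of the mean shares was -1.02 in upf1 and -1.56 in WT cells, and with tH(GUG)G2 left out of the total it was -0.94 and -1.50. The major isoleucine family tI(AAU) held 0.946% and 1.02% in upf1 ANS, against 0.796% and 0.934% in upf1 DMSO libraries. Its WT shares were 0.787% and 1.27% with ANS, against 1.08% and 1.28% with DMSO, without the drop seen for tI(UAU).

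Of the 41 families, 2 held a smaller share in ANS than in DMSO libraries without overlap in both strains, tI(UAU) and tS(CGA). Within a strain, 12 families were higher and 8 lower in upf1, and 12 and 6 in WT cells. Between the strains such counts were 9 higher and 10 lower in upf1 with DMSO, and 5 and 11 with ANS, so separation of 2 against 2 libraries was common for shares in every comparison. In both strains, another 6 held a larger one: the aspartate family tD(GUC), the glutamate family tE(UUC), the histidine family tH(GUG), the lysine family tK(CUU), the arginine family tR(CCU) and the tyrosine family tY(GUA). Of these, tR(CCU) had 12 reads in all. A share is tied to the others, so part of any rise follows from a fall elsewhere. The single serine gene of tS(CGA), tS(CGA)C, with an intron of 19 nt, held 0.326% and 0.448% in upf1 ANS, against 0.623% and 1.36% in upf1 DMSO libraries. Shares in WT cells were 0.375% and 0.917% with ANS, against 1.08% and 0.961% with DMSO.

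**Figure D5:**
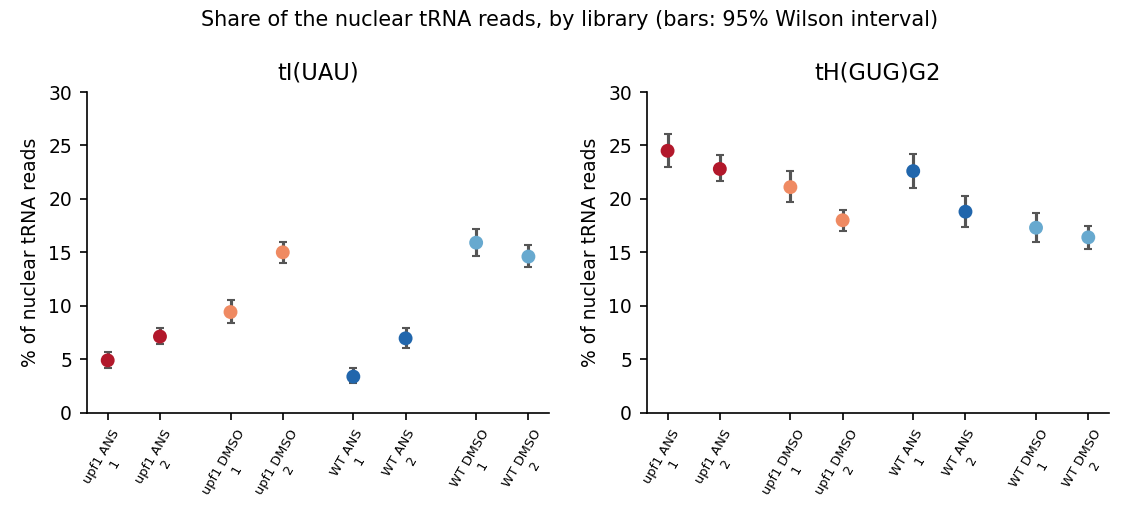
Percent of the nuclear tRNA reads of each library that fell on the tI(UAU) pair (left) and on tH(GUG)G2 (right), with 95% Wilson intervals for counting error. For tI(UAU) all ANS libraries, at 3.37% to 7.12%, lie under all DMSO libraries, at 9.41% to 15.9%.

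The summed density of the intron-bearing genes was higher after ANS by less than that of the rest. The gap narrowed once the tI(UAU) pair was left out. Their summed density gave a log2 ratio after ANS of 0.59 in upf1 and 0.35 in WT cells, against 0.92 and 0.79 for genes with no intron. Without the tI(UAU) pair the intron-bearing genes gave 0.82 and 0.70. With upf1 DMSO replicate 1 left out, the ratio in upf1 cells was 0.26 for intron-bearing genes, 0.56 for them without the pair and 0.67 for genes with no intron. Among genes with 80 reads or more, 17 of 34 with an intron rose in upf1 cells and 26 of 45 without one, and in WT cells 15 and 21. Of all features, 88.7% rose in upf1 and 90.2% in WT cells. Median fitted changes of these well-read genes were 0.73 with an intron and 0.92 without one in upf1 cells, and 0.48 and 0.69 in WT cells.

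Anticodons with 1 gene in the table are free of the question of how reads were shared within a family. The glutamine gene tQ(CUG)M had 0.919 and 1.25 in upf1 ANS, against 0.723 and 0.961 in upf1 DMSO libraries. In WT cells it had 1.28 and 0.858 with ANS, against 0.928 and 0.718 with DMSO. The groups overlapped in both strains, at fitted changes of 0.36 ± 0.24 in each (limma adjusted p = 0.173 and 0.173). Set against protein-coding genes it fell by 1.12 ± 0.34 in upf1 and 1.34 ± 0.34 in WT cells (0.0376 and 0.0128), and in upf1 cells it missed the threshold without upf1 DMSO replicate 1 (-1.39, 0.0531). The arginine gene tR(CCG)L, at 107 reads, had 0.11 and 0.236 in upf1 ANS, against 0.114 and 0.162 in upf1 DMSO libraries, and 0.0664 and 0.334 in WT ANS, against 0.292 and 0.124 in WT DMSO libraries, so that replicates spanned both groups. The leucine gene tL(GAG)G (68 reads), the arginine gene tR(CCU)J (12) and tT(CGU)K (7) were near the limit of counting, where 1 read in a gene of 72 nt stands for a density of 0.00808 to 0.0238. Of these 3, tL(GAG)G rose by 1.08 ± 0.43 in upf1 cells (0.0366) and had a value of 0.01 ± 0.43 in WT cells. It did not pass in upf1 cells without upf1 DMSO replicate 1 (0.45, 0.321), a library with a density of 0.0334 against 0.0851 in the other.

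Among genes above the median tRNA density with separate groups, the largest fitted rises were of single copies of larger families. In WT cells, beside tE(UUC)G1 at 2.47, tG(GCC)G2 rose by 3.01 ± 0.55, tK(UUU)L by 2.27 ± 0.50 and tV(AAC)G3 by 2.13 ± 0.23 (limma adjusted p = 0.000425, 0.00151 and 1.05e-05), with 47, 96 and 53 reads in all. In upf1 cells tC(GCA)P1 rose by 3.43 ± 0.86, tE(UUC)K by 2.39 ± 0.72 and tG(GCC)G1 by 2.38 ± 0.25 (0.00361, 0.00991 and 1.98e-05). Of these, tC(GCA)P1 had no read in 1 of the upf1 DMSO libraries. Without upf1 DMSO replicate 1, the 3 rises were 1.74, 0.88 and 2.11, and all passed (0.00623, 0.0143 and 0.000173). Relative to protein-coding genes only tG(GCC)G2 in WT (1.45 ± 0.52, 0.0477) and tG(GCC)G1 in upf1 cells (0.94 ± 0.21, 0.0128) passed among these 6.

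In DMSO few tRNA genes differed between upf1 and WT cells. The summed density was 23.9 and 36.6 in upf1 DMSO, against 35.5 and 35.5 in WT DMSO libraries, with overlap and a log2 ratio of -0.23, or 0.05 without upf1 DMSO replicate 1. Of 262 genes 6 were higher and 13 lower in upf1 (2.29% and 4.96%), where 31.6% of all features were higher and 0.613% lower. Median fitted changes were -0.23 for tRNA genes and 0.32 for all features, or 0.05 and 0.31 without upf1 DMSO replicate 1. Lower calls of tRNA genes no longer outnumbered higher ones without that library. On the protein-coding scale, with all libraries, 9 genes were higher and 27 lower (3.44% and 10.3%), against 30.9% and 16.4% of all features. Medians there were -0.47 for tRNA genes and 0.14 for all features, or -0.10 and 0.18 without upf1 DMSO replicate 1. Both upf1 DMSO libraries lay above both WT DMSO libraries for 28 of the 262 genes and below them for 67, against 54.5% and 13% of all features.

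Among genes above the median tRNA density, tL(UAG)L1 and tV(AAC)G3 were higher in upf1 DMSO cells. The leucine gene tL(UAG)L1, with 104 reads, had 0.156 and 0.115 in upf1 DMSO, against 0.0567 and 0.0683 in WT DMSO libraries, without overlap, and rose by 1.07 ± 0.21 (limma adjusted p = 0.00318). Its intron is 19 nt long. It was also higher relative to protein-coding genes, by 0.84 ± 0.22 (0.0176). With 7 libraries, upf1 DMSO replicate 1 left out, it was higher by 0.85 ± 0.27 (0.0448), and relative to protein-coding genes it missed the threshold (0.68, 0.101). The call for tV(AAC)G3, at 0.79, ended without any 1 of the 4 DMSO libraries (0.68 to 0.90, adjusted p = 0.0529 to 0.156). Lower ones were tC(GCA)P1, tN(GUU)O2, tE(UUC)G3 and tV(AAC)K2, with 43 to 46 reads each and changes of -2.52 to -1.28. None of these 4 passed without upf1 DMSO replicate 1, at -1.05 to -0.82 (adjusted p = 0.0743 to 0.275). Leaving out WT DMSO replicate 2 ended the calls for tC(GCA)P1, tN(GUU)O2 and tV(AAC)K2 (-2.36, -1.49 and -0.90), and leaving out WT DMSO replicate 1 those for tC(GCA)P1 and tE(UUC)G3 (-2.68 and -0.96). Families with the largest differences in summed density were tL(UAG) at 0.65 and tT(CGU) at 0.88 upward, and tR(CCU) at -2.50 and tG(CCC) at -1.34 downward. Once upf1 DMSO replicate 1 was left out, these were 0.42, 0.75, -1.50 and -1.25. Of these 4, tL(UAG) had 131 reads and the others 39 or fewer.

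Under ANS, 5 tRNA genes were higher and 2 lower in upf1 than in WT cells, where 2.69% of all features were higher and 0.216% lower. All 7 had 25 reads or fewer. On the protein-coding scale 1 was higher and 3 lower, against 5.41% and 1.93% of all features. Both upf1 ANS libraries lay above both WT ANS libraries for 38 genes and below them for 52, against 34.7% and 9.47% of all features. The summed density was 50.3 and 57.4 in upf1 ANS, against 53.1 and 59.8 in WT ANS libraries, with overlap and a log2 ratio of -0.07. The interaction of ANS and upf1, the difference between the strains in the change after ANS, passed for 5 genes upward and 3 downward, against 0.19% and 8.36% of all features, and on the protein-coding scale for 4 and 2, against 0.717% and 10.4%. The median interaction on the deposited scale was 0.19 for tRNA genes and -0.23 for all features, or -0.13 and -0.20 without upf1 DMSO replicate 1. Of the 8 on the deposited scale, 1 had 80 reads or more, the valine gene tV(CAC)H with 113 reads. It had 0.254 and 0.26 in upf1 ANS, against 0.113 and 0.151 in upf1 DMSO libraries, and 0.131 and 0.188 in WT ANS, against 0.222 and 0.17 in WT DMSO libraries. It rose in upf1 cells by 0.96 ± 0.23 (limma adjusted p = 0.00277), had -0.30 ± 0.23 in WT cells (0.227), and the interaction was 1.26 ± 0.32 (0.0408). That call ended without 6 of the 8 libraries in turn, all but WT DMSO replicate 2 and WT ANS replicate 2 (1.01 to 1.47, adjusted p = 0.0593 to 0.174).

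Mitochondrial tRNA genes had 106 reads in all, at most 5 in a library and 17 in a gene, and none was read in every library. The 4 with the highest mean density were tS(GCU)Q1 (17 reads), tY(GUA)Q (10), tP(UGG)Q (11) and tS(UGA)Q2 (12). Of 13 tested, tY(GUA)Q rose in both strains after ANS, tS(GCU)Q1 rose and tE(UUC)Q and tH(GUG)Q fell in WT cells. In DMSO tS(GCU)Q1 was higher and tH(GUG)Q lower in upf1 than in WT cells, and tS(GCU)Q1 did not pass without upf1 DMSO replicate 1 (2.29, adjusted p = 0.113). The reads behind these calls were 4 to 17 per gene, of which tH(GUG)Q had 2 in each WT DMSO library and none elsewhere.

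Other RNAs made by RNA polymerase III had a lower median change after ANS than the tRNA genes, with RNA170 above it. Of 11 such RNAs, 9 were in the table and 7 were tested, among them the 5S ribosomal RNA genes RDN5-1 and RDN5-5. After ANS 2 rose and none fell in upf1 cells and 1 rose and 2 fell in WT cells, at median changes of 0.18 and 0.23, where 88.7% and 90.2% of all features rose. Without upf1 DMSO replicate 1, none of the 7 passed in upf1 cells. The signal recognition particle RNA SCR1 had 60.7 and 78.5 in upf1 ANS, against 83.2 and 129 in upf1 DMSO libraries. In WT cells it had 58.2 and 129 with ANS, against 320 and 130 with DMSO. It fell by 1.24 ± 0.43 in WT cells (limma adjusted p = 0.02), where 1 DMSO library was far above the other. The 5S ribosomal RNA gene RDN5-1 fell by 0.40 ± 0.16 in WT cells (0.0337), but the libraries were depleted of ribosomal RNA. RNA170, a small transcript of this polymerase, rose by 1.17 ± 0.48 in WT and 1.495 ± 0.48 in upf1 cells (0.0387 and 0.0135), and had 0.67 in upf1 cells without upf1 DMSO replicate 1 (0.123). On the protein-coding scale 4 of 7 fell in upf1 and 5 of 7 in WT cells, where 18.4% and 19.4% of all features fell. The RNase P RNA RPR1 was among those that fell (-1.47 ± 0.19 and -2.09 ± 0.19, limma adjusted p = 0.00101 and 0.000125). SNR52, a snoRNA gene of this polymerase, rose by 0.72 ± 0.21 in upf1 cells (0.00923) and had 0.44 ± 0.21 in WT cells (0.0743), with 0.35 in upf1 cells without upf1 DMSO replicate 1 (0.0985). The U6 RNA gene SNR6 was higher in upf1 than in WT cells in DMSO, by 0.57 ± 0.17 (0.0267), with 0.32 ± 0.24 relative to protein-coding genes, and missed the threshold without upf1 DMSO replicate 1 (0.66, 0.0591).

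Messenger RNAs for proteins that make and use tRNAs rose after ANS on the deposited scale in nearly all cases, as did 94.8% of all protein-coding genes tested in upf1 and 95.2% in WT cells. All 10 RNA polymerase III transcription factors rose in both strains, at median changes of 1.55 in upf1 and 1.93 in WT cells. They included BDP1 of TFIIIB (1.63 ± 0.16 and 2.03 ± 0.16), TFC1 of TFIIIC (2.03 ± 0.17 and 2.07 ± 0.17) and MAF1, the repressor of RNA polymerase III (1.52 ± 0.17 and 2.48 ± 0.17). Against protein-coding genes, 1 of the 10 rose and 1 fell in upf1 cells, where 17.4% and 18.4% of all features did. In WT cells 4 rose and 1 fell, where 35.7% and 19.4% did, so that the rises were near the background. MAF1 rose on that scale in WT cells (0.80 ± 0.09, limma adjusted p = 0.000319) and had 0.04 ± 0.09 in upf1 cells (0.755), with an interaction of -0.755 ± 0.124 (0.0111). MAF1 was also higher in upf1 than in WT cells in DMSO, at 0.363 and 0.298 against 0.133 and 0.125, a change of 1.33 ± 0.17 (0.000229) or 1.09 ± 0.09 relative to protein-coding genes (9.6e-05). TFC3 of TFIIIC was higher there by 0.62 ± 0.18 (0.0258), but not past the threshold without upf1 DMSO replicate 1 (0.48, 0.21).

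All 21 genes of tRNA end processing, splicing and export rose in both strains, at medians of 1.35 in upf1 and 1.73 in WT cells, close to the medians of all features. Against protein-coding genes, 4 of the 21 rose and 7 fell in upf1 cells (17.4% and 18.4% of all features), and 6 rose and 7 fell in WT cells (35.7% and 19.4%). Their median in upf1 cells on that scale was -0.12, or -0.07 without upf1 DMSO replicate 1. SEN15 of the tRNA splicing endonuclease rose in both on that scale (1.06 ± 0.11 and 1.02 ± 0.11), as did the tRNA exportin LOS1 (0.54 ± 0.07 and 0.46 ± 0.07), and POP7 of RNase P rose in WT cells (0.90 ± 0.11, limma adjusted p = 0.000427). In DMSO, 6 of the 21 were higher in upf1 cells and none lower, near the 31.6% of all features that were higher. Their median change was 0.16, or 0.05 without upf1 DMSO replicate 1. On the protein-coding scale 6 were higher and 6 lower, against 30.9% and 16.4% of all features. Among those higher were POP3 of RNase P (1.10 ± 0.16) and SEN54 of the splicing endonuclease (0.98 ± 0.16). SEN54 had 0.232 and 0.205 in upf1 DMSO, against 0.102 and 0.116 in WT DMSO libraries.

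All 50 tRNA modification genes rose in both strains (medians of 1.47 in upf1 and 1.68 in WT cells), and so did all 11 genes of tRNA surveillance and decay (1.55 and 1.80), where 88.7% of all features rose in upf1 and 90.2% in WT cells. Against protein-coding genes 7 of the 50 rose and 10 fell in upf1, and 15 rose and 14 fell in WT cells. On that scale 17.4% of all features rose and 18.4% fell in upf1, and 35.7% and 19.4% in WT cells. Of the 11, 3 rose and 2 fell in upf1, and 4 rose and 3 fell in WT cells. The median of the 50 in upf1 cells on that scale was -0.001, or 0.02 without upf1 DMSO replicate 1. In DMSO 9 of the 50 were higher in upf1 cells and none lower, below the 31.6% of all features. Their median change was -0.003, or -0.11 without upf1 DMSO replicate 1. On the protein-coding scale 8 were higher and 21 lower, against 30.9% and 16.4% of all features. Of the 11 surveillance and decay genes none was higher and 6 were lower there. Their median on that scale was -0.29, or -0.26 without upf1 DMSO replicate 1. TAD1, a tRNA adenosine deaminase, had 0.244 and 0.211 in upf1 DMSO, against 0.068 and 0.0793 in WT DMSO libraries, and was higher by 1.58 ± 0.17 (limma adjusted p = 9.53e-05). THG1, which adds a guanosine to the 5′ end of histidine tRNA, was higher by 1.23 ± 0.17 (0.000348). Both stayed past the threshold relative to protein-coding genes (1.36 ± 0.12 and 0.98 ± 0.10). After ANS in WT cells the smallest adjusted p among modification genes belonged to KTI11, which acts with the Elongator complex (2.57 ± 0.17), TAD1 (2.48 ± 0.17) and the tRNA methyltransferase TRM44 (2.23 ± 0.16). Among decay genes they belonged to AIR2 of the TRAMP complex (2.63 ± 0.18), the ribonuclease RNY1 (2.05 ± 0.17) and RAI1, the partner of the Rat1 nuclease (2.06 ± 0.17).

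Cytosolic aminoacyl-tRNA synthetases had smaller rises than the median protein-coding gene. The list held 21 genes of synthetases and ARC1, a tRNA-binding cofactor of synthetases. Of these 22 genes 21 rose in upf1 and 22 in WT cells, at medians of 0.79 and 0.90 against 1.43 and 1.72 for protein-coding genes. On the protein-coding scale 21 fell in upf1 and 22 in WT cells, at medians of -0.70 and -0.80, where 18.4% and 19.4% of all features fell. With ARC1 left out, 20 of 21 rose in upf1 and 21 in WT cells on the deposited scale, and 20 and 21 fell on the protein-coding scale. The glutamate enzyme GUS1 had 3.88 and 3.19 in upf1 ANS, against 3.07 and 2.62 in upf1 DMSO libraries, and 3.79 and 4.69 in WT ANS, against 3.16 and 3.25 in WT DMSO libraries. The smallest adjusted p values on the deposited scale in WT cells belonged to GLN4, MES1 and WRS1, for glutamine, methionine and tryptophan, which rose by 1.10 to 1.44. In DMSO none of the 22 passed on the deposited scale, and 21 were lower in upf1 cells relative to protein-coding genes, at a median of -0.42, where 16.4% of all features were lower.

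All 14 mitochondrial synthetases rose in both strains, as did 88.7% of all features in upf1 and 90.2% in WT cells. Their medians were 1.69 in upf1 and 1.89 in WT cells, above those of the cytosolic list. In WT cells they were led by MSE1, DIA4 and MSW1, for glutamate, serine and tryptophan. Against protein-coding genes, 5 of the 14 rose and 1 fell in upf1 cells (17.4% and 18.4% of all features), and 1 rose there without upf1 DMSO replicate 1. In WT cells 4 rose and 1 fell (35.7% and 19.4%). Of 9 genes of mitochondrial tRNA processing 8 rose in each strain, with CCA1, TRZ1 and MSS1 at the smallest adjusted p in WT cells. RPM1, the RNA of mitochondrial RNase P, fell by 1.47 ± 0.38 in WT cells (limma adjusted p = 0.00411) and had -0.85 ± 0.38 in upf1 cells (0.0562). For upf1 against WT in DMSO, the share of all features that were higher was 31.6%. In DMSO 2 of the 9, SLM3 and MSS1, were higher in upf1 cells (1.01 ± 0.20 and 0.94 ± 0.19), as was MSW1 among the synthetases (0.78 ± 0.18), which missed the threshold without upf1 DMSO replicate 1 (0.69, adjusted p = 0.0698).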

How the data were processed

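The authors deposited 1 table of normalized densities (signal) with 8 library columns and 4 columns of group means, and the means were not used. Per the submitters' processing notes, the build is R64, and the tools named are DESeq2, featureCounts (2.0.0), HISAT2 (2.2.0) and Trim Galore. The role of each tool, the scaling basis, any use of the spike-in and the treatment of reads with several matches are not given in the sources used here. For 11954 features, a single length per feature and a single factor per library turned the densities into whole reads (tolerance 0.0001 reads), and 12 were 0 throughout. Lengths of 284 of 287 tRNA genes equalled an annotated length, introns included. Recovered reads give depth and shares. RefSeq lists 275 nuclear and 24 mitochondrial tRNA loci in R64, and 148 nuclear genes were matched to 1 locus.

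Tests used limma 3.58.1 (R 4.3.3) on log2(density + 0.0034), where 0.0034 is the 5th percentile of all densities above 0. Fitted changes of low genes depend on this value, and a library at 0 can make them large. Features whose mean density reached that value were fitted (11579, with 387 left out). Each group had its own mean in a joint fit of 8 libraries, with two-sided moderated tests and Benjamini-Hochberg adjustment at 0.05. For changes relative to protein-coding genes, each library was rescaled by their median ratio to the geometric mean. The fit was tested on simulated data, with changed features drawn from those with 80 reads or more. It called 35% of those changed 2-fold, 96% of those changed 4-fold and 0.141% of unchanged features. Genes with fewer reads were not among the changed ones, so recovery for them was not tested. Replicates are biological per the labels, and p-values measure the spread between these samples. Errors are the SD of 2 libraries or the SE of the fit.

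The members, lists and rules were chosen with earlier results of these data known. Named nuclear genes are the 4 of highest mean density, up to 4 rises and 4 falls past the threshold after ANS in WT and for upf1 in DMSO (3 for other comparisons) with separate groups and a density above the median, and each gene alone in its anticodon. Named families have the 4 largest and 4 smallest changes after ANS in WT cells, and 2 of each for upf1 in DMSO. Named list genes have the smallest adjusted p, up to 3 after ANS in WT and 2 for upf1 in DMSO. The tI(AAU) family, the families named for their shares and SNR52 were added after their values were seen. Alternatives tried are given in the closing section.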

Additional observations from a re-analysis of the deposited data

Results flagged for a closer look

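The change after ANS differed between the strains, by the interaction test of limma (adjusted p under 0.05 over all features), for 8 of 262 nuclear tRNA genes tested, 1 of 13 mitochondrial tRNA genes and 3 mRNAs of tRNA-related proteins. Of all features 0.19% passed upward and 8.36% downward, and of protein-coding genes 0.0512% and 6.35%. A positive log2 interaction means a higher change in upf1 than in WT cells. The valine gene tV(CAC)H, with 113 reads, had 1.26, and tV(AAC)G3, with 53 reads, had -1.54. The other nuclear genes rested on few reads: tT(AGU)C had 2.01 with 33 reads, tI(AAU)E1 3.33 with 14, tI(AAU)L2 5.56 with 13, tI(AAU)N1 5.27 with 11, tM(CAU)J1 -2.72 with 8 and tN(GUU)C -2.70 with 7. The 3 tI(AAU) genes have a sequence found at 13 loci, and their family as a whole had log2 ratios of 0.95 in upf1 and 0.42 in WT cells. The mitochondrial gene tH(GUG)Q had 2.88 with 4 reads, all in WT DMSO libraries. Values fitted for genes at 0 in a group depend on the pseudocount. Without upf1 DMSO replicate 1, tI(AAU)N1 was the only one of these 8 nuclear genes to pass (adjusted p = 0.0458), and tH(GUG)Q did not (0.0634). Without upf1 ANS replicate 2, no nuclear tRNA gene passed in either direction, and the count at an unadjusted p under 0.05 with all libraries was 36.

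Among the mRNAs, TAD1 had -1.42, KTI11 -1.17 and MAF1 -0.96. The 3 mRNAs were higher in upf1 than in WT cells in DMSO, by 1.58, 1.25 and 1.33. Without upf1 DMSO replicate 1, which left 1 library in that group, the 3 interactions were -1.32, -1.21 and -0.82. The calls for TAD1 and MAF1 ended in that fit, where far fewer of all features had a called interaction.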

How the results depend on the processing

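Rescaling to protein-coding genes turned the log2 ratio of the summed density after ANS to -0.67 in upf1 and -1.04 in WT cells, with 5 genes higher and 37 lower in upf1, and 3 and 82 in WT cells. For upf1 against WT, 27 genes were lower in DMSO and 1 higher under ANS. With upf1 DMSO replicate 1 also left out, an alternative added after the data were seen, 5 genes were higher and 55 lower after ANS in upf1, and 4 and 98 in WT cells, 1 was higher in upf1 under ANS and 3 had a higher interaction. The signs of tH(GUG)G2 (-0.82), tQ(CUG)M (-1.34), tL(GAG)G (-1.65), tR(CCU)J (-0.62), tF(GAA) (-0.59), tE(UUC) (-0.60) and tS(UGA) (-0.43) turned after ANS in WT cells, and that of tQ(CUG)M for upf1 in DMSO (-0.22). The median in place of the sum gave 0.81 for all nuclear genes after ANS in WT cells and -1.65 for tL(UAG) for upf1 in DMSO. With 5 times the pseudocount, 1 gene was lower after ANS in upf1 cells, 6 were lower in upf1 under ANS and 2 had a higher interaction. With the pseudocount divided by 5, 1 was higher in upf1 under ANS. A filter at 5 times the pseudocount gave 1 lower after ANS in upf1 cells and 3 higher in upf1 under ANS. Fits to the compared groups alone gave 12 higher in upf1 in DMSO, and 14 higher and 23 lower under ANS. Recovered reads with voom weights gave 3 lower after ANS in WT and 0 in upf1 cells, 3 higher in upf1 in DMSO, 0 higher under ANS and 1 lower interaction.

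The replicate numbers were not taken as pairs, since deviations of same-numbered libraries correlated at only -0.0454 to 0.167. With a replicate block, 11 genes were higher and 26 lower in upf1 in DMSO, 6 were lower under ANS, 117 rose in upf1 and 106 in WT cells after ANS, and tI(UAU)L and tI(UAU)D passed in WT cells (limma adjusted p = 0.00403 and 0.00623).

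Leaving out 1 library at a time, where a lone library is assumed to vary like the other groups, gave 65 to 122 higher and 1 to 9 lower after ANS in upf1 cells, and 69 to 100 and 9 to 15 in WT cells. For upf1 in DMSO it gave 3 to 14 higher and 4 to 42 lower, under ANS 1 to 12 and 2 to 7, and for the interaction 0 to 15 and 0 to 10. Summed densities ranged over 0.56 to 1.17 and 0.58 to 0.75 after ANS in upf1 and WT cells, -0.57 to 0.046 for upf1 in DMSO and -0.17 to 0.024 under ANS. For upf1 in DMSO, tH(GUG)G2 ranged over -0.28 to 0.14, tI(UAU)L over -1.17 to 0.032, tI(UAU)D over -1.54 to 0.013 and tQ(CUG)M over -0.18 to 0.23. After ANS in WT cells, tS(CGA)C ranged over -0.93 to 0.54, tL(GAG)G over -0.53 to 0.54 and tR(CCG)L over -1.48 to 0.80. The causes were not tested. Calls after ANS in upf1 cells went down to genes with 3 reads over all libraries, where the size of a change depends on the pseudocount.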

Other observations

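Of the nuclear tRNA genes matched to 1 locus, 15 had a protein-coding gene ending within 500 nt upstream on the same strand, and 133 had none. After ANS in WT cells, 1 of 14 tested of the first kind and 36 of 131 of the second rose, and 0 and 5 fell, where 90.2% of all features rose and 0.345% fell (limma, adjusted p under 0.05). Median fitted changes were 0.03 and 0.51 (log2), at median reads of 74 and 36. No matched locus overlapped with a protein-coding gene.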
